A study of Mus musculus with 11 samples.

Results

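The genes described here are 43 mouse genes of DNA replication, mitosis and cell cycle arrest, taken by symbol from a fixed list of names, out of 55536 genes counted. They comprise 17 S-phase genes, 23 mitotic genes and 3 genes of CDK inhibitors. Bulk RNA was sequenced in 11 libraries made from dorsal skin epidermis of males carrying CD4Cre and R26-tdT (C57Bl6/N). In these mice, cells that have expressed Cre from the CD4 promoter, and the progeny of such cells, carry the tdT reporter. Both alleles were present in all groups, so tdT+ and tdT- cells differ in reporter signal and not in the genotype of the mice. The cells were freed with thermolysin and sorted by FACS as CD49f+CD34+ cells into 4 groups: Sca-1+ tdT+ (3 libraries), Sca-1+ tdT- (2 libraries), Sca-1neg tdT+ (3 libraries) and Sca-1neg tdT- (3 libraries). Mice were 29 weeks old for replicate 1 of every group and 32 weeks old for the rest, with 2 mice pooled in a library. No other treatment is named in the labels. They do not say whether the libraries came from separate sorts, so p-values measure the spread between these libraries, which may be technical in part.

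A dividing cell first licenses and copies its DNA and then separates the copies. The Mcm2 to Mcm7 proteins form the replicative helicase, Cdc6 and Cdt1 load it, Cdc45 and Gins2 activate it, Pcna clamps the polymerase to DNA, Rrm1, Rrm2 and Tyms supply nucleotides, and Ccne1, Ccne2 and E2f1 drive entry into S phase. Cyclins A and B with Cdk1 start mitosis, Foxm1 activates transcription of mitotic genes, the Aurora and Polo kinases and motor proteins build the spindle, the Bub1 and Bub1b checkpoint watches kinetochores, and Cdc20 and Ube2c act in the ubiquitination that ends mitosis. CD34+ cells with high CD49f in the hair follicle bulge are known as largely quiescent stem cells that divide at the onset of hair growth. In bulk RNA, fewer cycling cells and less cell cycle RNA per cycling cell cannot be told apart.

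Both classes of cycle gene carry known promoter elements, which are shown here because they differ between the classes. Promoters from RefSeq (GRCm38.p6, from 250 bases before to 50 bases after the annotated start) were found for 14 of the 17 S-phase genes, 18 of the 23 mitotic genes and 2 of the 3 CDK inhibitor genes. They were searched on both strands for TTTGAA, the core of the cell cycle genes homology region (CHR) that the DREAM and B-Myb-MuvB-Foxm1 complexes read. They were also searched for its variant TTTAAA, for CCAAT, the box of the factor NF-Y, and for an E2F core in the forms TTGGCGC or TTCCCGC or TTCGCGC or TTGCCGC. A gene counted once if any of its listed promoters had a match. Matches may overlap one another, as where an E2F core runs into a CCAAT box. TTTGAA was present in 13 of 18 mitotic promoters (72.2%), in 2 of 14 S-phase promoters (14.3%) and in 20.2% of 27025 promoters of all genes. The E2F core showed the other order, with 3 of 18 mitotic promoters (16.7%), 8 of 14 S-phase promoters (57.1%) and 10.9% of all promoters. CCAAT was found in 16 of 18 mitotic promoters and 9 of 14 S-phase promoters, against 41.1% of all promoters, and TTTAAA in 7 of 18 and 3 of 14, against 14.9%. With the window cut to the 200 bases before the start, TTTGAA remained in 8 of 18 mitotic promoters (44.4%) and in 14.4% of all promoters. In the same window the E2F core was present in 5 of 14 S-phase promoters (35.7%), 3 of 18 mitotic promoters and 7.77% of all promoters.

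The 110 bases before the start of 6 genes are printed because these genes rose in Sca-1+ tdT+ cells over Sca-1neg tdT+ cells and hold CHR, CCAAT or E2F elements in this stretch. Capitals mark matches to the motifs on either strand, so that ATTGG is a CCAAT box and TTCAAA a CHR on the other strand. Mcm6, a helicase subunit, lies on the minus strand (chr1:128359706-128359815), Rrm1, the large subunit of ribonucleotide reductase, on the plus strand (chr7:102441585-102441694), Cdc20 on the minus strand (chr4:118437344-118437453), Top2a, which untangles chromosomes, on the minus strand (chr11:99024190-99024299), Ube2c on the plus strand (chr2:164769819-164769928) and Ccnb1, cyclin B1, on the minus strand (chr13:100786487-100786596).
Mcm6: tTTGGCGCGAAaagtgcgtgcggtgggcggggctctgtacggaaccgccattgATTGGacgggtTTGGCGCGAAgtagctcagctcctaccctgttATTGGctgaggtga
Rrm1: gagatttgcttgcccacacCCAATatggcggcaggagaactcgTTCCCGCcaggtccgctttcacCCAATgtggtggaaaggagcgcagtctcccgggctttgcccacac
Cdc20: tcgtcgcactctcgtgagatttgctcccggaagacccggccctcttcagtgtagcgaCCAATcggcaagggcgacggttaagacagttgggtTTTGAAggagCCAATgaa
Top2a: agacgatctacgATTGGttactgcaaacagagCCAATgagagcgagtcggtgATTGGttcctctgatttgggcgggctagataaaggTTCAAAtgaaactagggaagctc
Ube2c: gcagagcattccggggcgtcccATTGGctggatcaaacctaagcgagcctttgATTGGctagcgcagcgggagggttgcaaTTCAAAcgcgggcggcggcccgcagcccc
Ccnb1: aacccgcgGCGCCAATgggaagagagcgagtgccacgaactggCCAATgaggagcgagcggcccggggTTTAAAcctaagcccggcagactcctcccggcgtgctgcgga
In these stretches Mcm6 and Rrm1 held CCAAT boxes and E2F cores and no CHR. Top2a and Ube2c held a CHR downstream of their CCAAT boxes, Cdc20 held a CHR with a CCAAT box on either side of it, and Ccnb1 held the TTTAAA variant, CCAAT boxes and an E2F core. Other genes that rose were arranged otherwise: the same stretch of Mcm2, a replication gene, held a CHR and neither CCAAT nor an E2F core, and that of Cenpf, a mitotic gene, held a CCAAT box and no CHR. A match describes letters and is neither a bound site nor a cause of the values that follow.

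**Figure D1:**
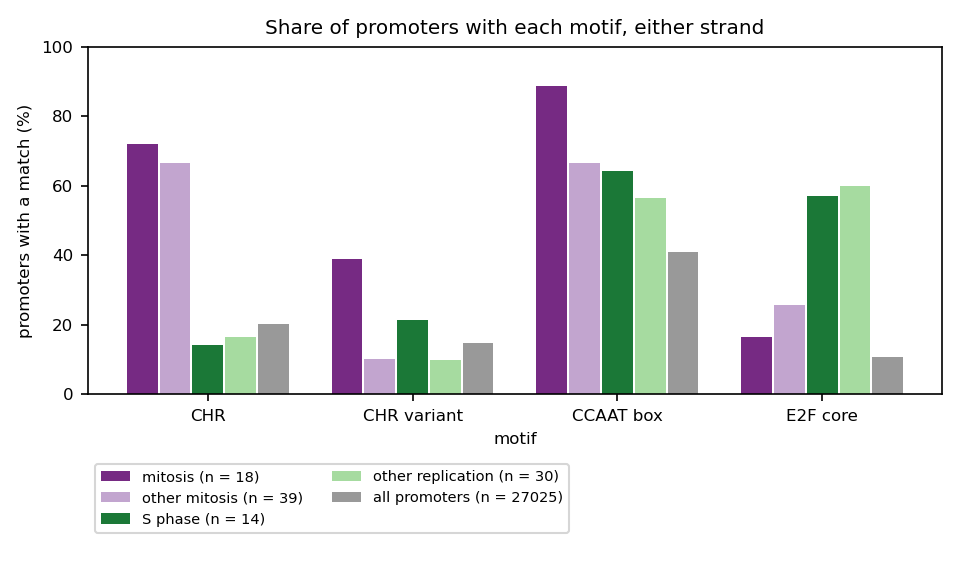
The bars give the percent of promoters with at least 1 match to each motif on either strand, for the mitotic and S-phase genes, for further genes of mitosis and replication, and for all promoters. CHR matches reach 72.2% of mitotic promoters and 14.3% of S-phase promoters, and E2F core matches reach 57.1% of S-phase promoters and 16.7% of mitotic promoters.

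The further genes of each process showed the same contrast of sequence. TTTGAA was present in 26 of 39 promoters of other mitosis genes and in 5 of 30 promoters of other replication genes. The E2F core was present in 10 of 39 and 18 of 30 of them. Neither listed promoter of Cdkn1a, which encodes the CDK inhibitor p21, had a match to the motifs searched, and that of Cdkn1b had TTTAAA and CCAAT.

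Total gene counts ran from 17409131 to 46542177 per library. Levels are given as counts scaled to library size (CPM). The tdT tracer, counted apart from the genes, ran from 224 to 307 CPM with Sca-1+ tdT+ cells and from 4.10 to 4.89 CPM with Sca-1+ tdT- cells. Replicates 1 and 3 of Sca-1neg tdT+ held 133 and 252 CPM of it, against 2.54 to 3.78 CPM for Sca-1neg tdT- cells. Its value was 2.05 CPM for the library labelled Sca-1neg tdT+ replicate 2 (95% exact Clopper-Pearson interval 1.44 to 2.83, counting error only), which is the level of tdT- libraries and goes against the label. Values of Sca-1neg tdT+ cells are given in the order of the replicates, so the second of each set of 3 comes from the library labelled Sca-1neg tdT+ replicate 2. Liver transcripts took 3.17% of the counts of Sca-1neg tdT+ replicate 1, 1.75% of the library labelled Sca-1neg tdT+ replicate 2, 1.92% of Sca-1neg tdT- replicate 2 and at most 0.0125% elsewhere. Ly6a, which encodes Sca-1, ran from 153 to 294 CPM in Sca-1+ libraries and from 2.46 to 59.2 CPM in Sca-1neg libraries. Cd34 reached only 22.3 to 35.7 CPM with Sca-1+ tdT+ cells, against 320 to 1130.1 CPM with the other cells, although all cells were sorted as CD34+.

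All 43 members passed the filter on low counts, and 41 of 43 reached 1 CPM in every library. Levels between genes are compared as CPM per kb of annotated exon, averaged over the 11 libraries. On this scale the most abundant S-phase genes were Pcna (22.2), Mcm6 (19.3), Mcm4 (18.9) and Rrm2 (13.0), and the least abundant were Ccne1 (1.11) and Cdc6 (0.823). Among mitotic genes, Mki67, the antigen Ki-67 (16.6), Cdc20 (15.1), Top2a (13.0) and Ccnb2 (11.4) were the most abundant, and Bub1 (2.28) and Ccnb1 (1.87) the least. The CDK inhibitor genes Cdkn1a (58.0) and Cdkn1b, which encodes p27 (40.4), stood above every S-phase and mitotic gene on this scale, and Cdkn1c, which encodes p57, stood at 1.2.

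The exons of 15 members overlap those of another gene, 13 of them on the opposite strand, and the library kit does not mark strand, so reads of the shared bases cannot be told apart. Among the genes named with values, this touches Prc1 (Rccd1), Cdc20 (Elovl1), Ube2c (Tnnc2), Ccna2 (Exosc9), Gins2 (Gse1), Mcm7 (Ap4m1 and Cops6), Plk1 (Gm44985), Cdkn1a, Cdkn1c, Foxm1 and Top2a, and Ccnb1, Ccnb2, Pcna and Tyms have named pseudogene copies.

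**Figure D2:**
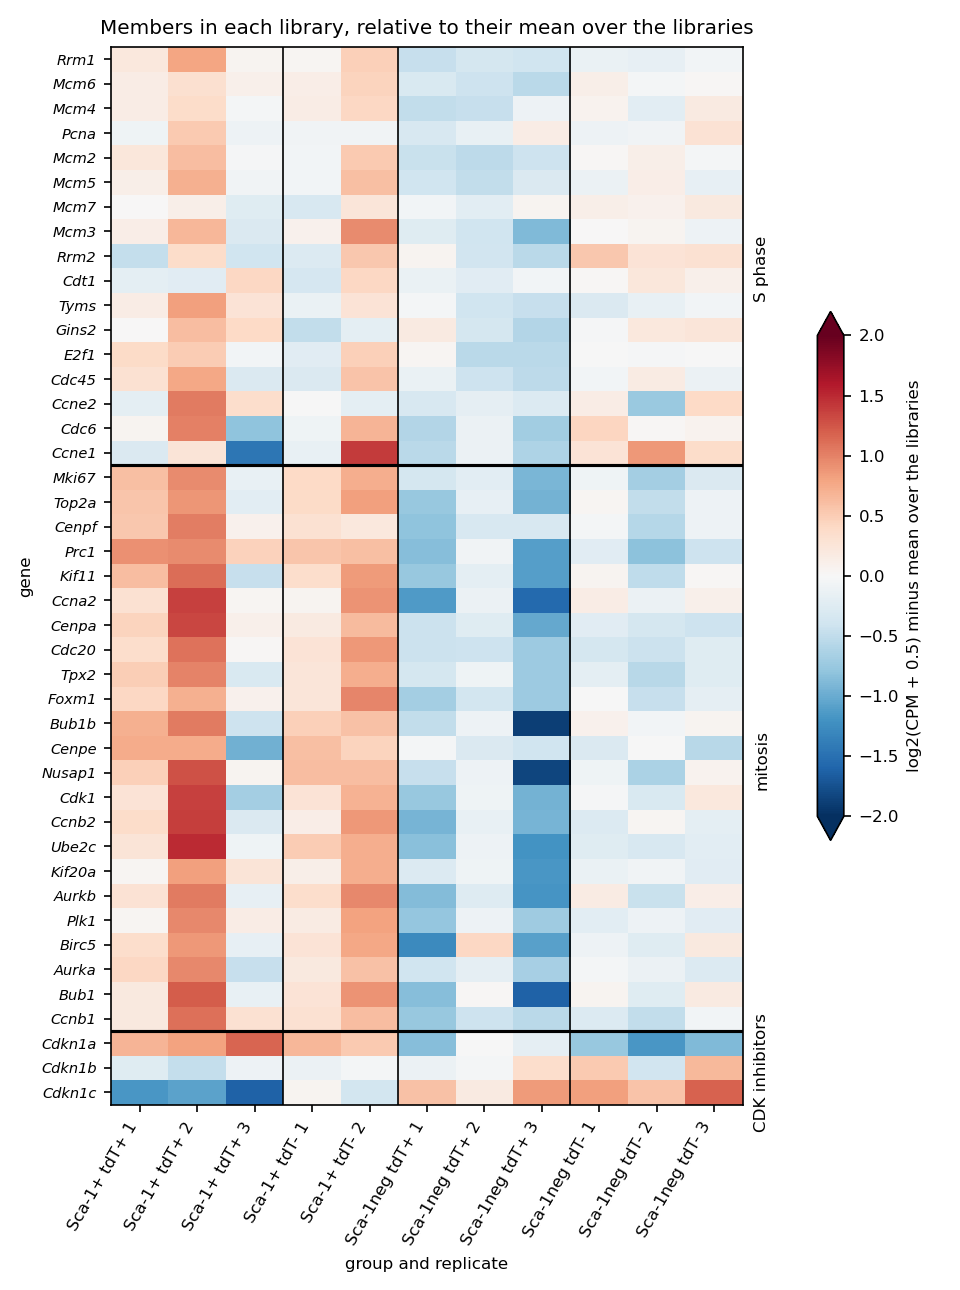
Rows are the 43 members by class and columns the 11 libraries by group. Colour is log2(CPM + 0.5) minus the mean of the gene over the libraries. The mitotic rows are mostly red in Sca-1+ columns, apart from Sca-1+ tdT+ replicate 3, and blue in Sca-1neg columns, while most S-phase rows are pale in Sca-1neg tdT- columns.

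Summed over its 23 genes, mitotic RNA came to 972, 1396 and 625 CPM in Sca-1+ tdT+ cells, to 866 and 1127 CPM in Sca-1+ tdT- cells, to 447, 595 and 347 CPM in Sca-1neg tdT+ cells and to 641, 494 and 604 CPM in Sca-1neg tdT- cells. Every Sca-1+ library except Sca-1+ tdT+ replicate 3 lay above every Sca-1neg library, and that replicate (625 CPM) lay within the range of the Sca-1neg tdT- libraries. The sum over the 17 S-phase genes came to 635, 864 and 589 CPM in Sca-1+ tdT+ cells, to 583 and 817 CPM in Sca-1+ tdT- cells, to 489, 460.1 and 478 CPM in Sca-1neg tdT+ cells and to 611, 599 and 627 CPM in Sca-1neg tdT- cells. The lowest S-phase sums were thus the 3 of the Sca-1neg tdT+ group, and the Sca-1neg tdT- libraries lay inside the range of the Sca-1+ libraries. Within the Sca-1neg tdT- group the S-phase sums were close, at 612 ± 14.1 CPM (SD, n = 3), whereas the Sca-1+ tdT+ sums spread to 696 ± 147 CPM (SD, n = 3).

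A level for each class was set as the median over its genes of log2(CPM + 0.5), each gene centred on the mean of its group means. The mitotic level minus the S-phase level was 0.28, 0.40 and -0.13 in Sca-1+ tdT+ cells, 0.34 and 0.22 in Sca-1+ tdT- cells, -0.49, 0.21 and -0.54 in Sca-1neg tdT+ cells, and -0.15, -0.40 and -0.28 in Sca-1neg tdT- cells. The sign split the libraries by Sca-1 with 2 exceptions, Sca-1+ tdT+ replicate 3 and the library labelled Sca-1neg tdT+ replicate 2. The latter library also had the highest sum of 14 endothelial markers among Sca-1neg libraries, 1299 CPM against 13.9 to 226 CPM. Its Ly6a was the highest of these libraries too, at 59.2 CPM against 2.46 to 27.6 CPM. The part of either in its class levels was not tested.

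The first comparison asks how Sca-1+ and Sca-1neg cells differ within the tdT+ cells. Of the 43 members, 13 were higher in Sca-1+ tdT+ cells than in Sca-1neg tdT+ cells and 1 was lower, by the quasi-likelihood test of edgeR with Benjamini-Hochberg adjustment over 20307 genes at 0.05, which called 12.7% of all genes (5.94% higher and 6.73% lower). Mitotic genes made up most of them, with 9 of 23 higher and none lower, against 3 of 17 S-phase genes higher and none lower. Log2 fold changes had a median of 1.13 over the mitotic genes, 0.64 over the S-phase genes and -0.07 over all genes tested. They were above 0 for 23 of 23 mitotic and 17 of 17 S-phase genes. Libraries of the groups did not overlap, all Sca-1+ ones being higher, for 13 of 23 mitotic genes and 6 of 17 S-phase genes, against 15.4% of all genes. With the library labelled Sca-1neg tdT+ replicate 2 left out, these counts were 21 of 23 and 7 of 17, against 19.5% of all genes. With all 3 liver-transcript libraries left out, they were 22 of 23 and 12 of 17, against 32.0% of all genes.

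Among replication genes, the helicase subunits Mcm6 and Mcm2 and the reductase subunit Rrm1 rose. Mcm6 was at 98.4, 109.9 and 94.8 CPM in Sca-1+ tdT+ cells, against 71.3, 66.2 and 60.6 CPM in Sca-1neg tdT+ cells, a log2 fold change of 0.61 ± 0.13 (approximate SE, edgeR adjusted p 0.0117). Rrm1 stood at 102, 154 and 92.0 CPM in Sca-1+ tdT+ cells and at 64.1, 69.3 and 67 CPM in Sca-1neg tdT+ cells (log2 fold change 0.80 ± 0.19, edgeR adjusted p 0.0207). The values of both genes left a gap between the groups. Mcm2 reached 58.8, 77.0 and 49.2 CPM in Sca-1+ tdT+ cells, against 36.8, 34.7 and 37.4 CPM in Sca-1neg tdT+ cells (log2 fold change 0.77 ± 0.19, edgeR adjusted p 0.0246).

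Other abundant replication genes did not pass the test. For Mcm4, another helicase subunit, 73.6, 85.9 and 64.5 CPM in Sca-1+ tdT+ cells stood against 47.2, 48.1 and 62.1 CPM in Sca-1neg tdT+ cells, without overlap (log2 fold change 0.51 ± 0.17, edgeR adjusted p 0.0772). Pcna was at 49.5, 76.2 and 49.1 CPM in Sca-1+ tdT+ cells and at 41.8, 47.2 and 58.4 CPM in Sca-1neg tdT+ cells, which overlap (log2 fold change 0.25 ± 0.20). Rrm2, the small reductase subunit, was at 24.6, 44.6 and 26.2 CPM in Sca-1+ tdT+ cells and at 36.1, 26.2 and 23.6 CPM in Sca-1neg tdT+ cells (log2 fold change 0.15 ± 0.28). Both reductase subunits work as 1 enzyme, yet only the large one was called here, and the difference between them was not tested. The remaining 11 S-phase genes had log2 fold changes from 0.03 (Mcm7) to 0.81 (Cdc6), none called.

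Among mitotic genes, Prc1, which bundles the microtubules of the central spindle, had the lowest p. It was at 65.0, 66.1 and 47.3 CPM in Sca-1+ tdT+ cells, against 18.7, 32.6 and 15.6 CPM in Sca-1neg tdT+ cells (log2 fold change 1.42 ± 0.27, edgeR adjusted p 0.00745). Its call held in 17 of 18 alternative analyses. Foxm1, the transcription factor of the mitotic programme, was at 32.5, 39.8 and 25.6 CPM in Sca-1+ tdT+ cells, against 14.9, 18.6 and 14.4 CPM in Sca-1neg tdT+ cells (log2 fold change 1.03 ± 0.25, edgeR adjusted p 0.0197). Cdc20, the activator of the anaphase-promoting complex, was at 33.5, 55.9 and 26.5 CPM in Sca-1+ tdT+ cells, against 19.2, 19.4 and 15.5 CPM in Sca-1neg tdT+ cells (log2 fold change 1.10 ± 0.27, edgeR adjusted p 0.0227). In all 3 genes the lowest Sca-1+ tdT+ library lay above the highest Sca-1neg tdT+ library.

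Cenpa and Cenpf rose as well, while the kinetochore genes Cenpe, Bub1 and Bub1b did not pass the test. Cenpa, the centromeric histone H3 variant, was at 37.8, 70.5 and 29.6 CPM in Sca-1+ tdT+ cells, against 20.4, 23.2 and 13.3 CPM in Sca-1neg tdT+ cells (log2 fold change 1.28 ± 0.32, edgeR adjusted p 0.0235). Cenpf, a kinetochore protein that builds up before mitosis, was at 54.3, 76.0 and 39.3 CPM in Sca-1+ tdT+ cells, against 21.2, 29.6 and 29.5 CPM in Sca-1neg tdT+ cells (log2 fold change 1.08 ± 0.25, edgeR adjusted p 0.0169). Neither gene overlapped between the groups.

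Among the cyclin genes Ccnb1 alone passed the test. It was at 8.39, 16.2 and 9.14 CPM in Sca-1+ tdT+ cells, against 4.12, 5.36 and 4.85 CPM in Sca-1neg tdT+ cells (log2 fold change 1.23 ± 0.33, edgeR adjusted p 0.0315). Ccnb2, the other B-type cyclin, was at 20.2, 41.2 and 12.6 CPM in Sca-1+ tdT+ cells and at 7.89, 13.9 and 7.94 CPM in Sca-1neg tdT+ cells, and it did not pass (log2 fold change 1.31 ± 0.41, edgeR adjusted p 0.0615). Top2a was at 159, 201 and 93.6 CPM in Sca-1+ tdT+ cells, against 63.5, 96.6 and 55.7 CPM in Sca-1neg tdT+ cells (log2 fold change 1.07 ± 0.29, edgeR adjusted p 0.0382). For Ccnb2 and Top2a the overlap between the groups came from Sca-1+ tdT+ replicate 3 and the library labelled Sca-1neg tdT+ replicate 2. Mki67 was at 235, 298 and 139 CPM in Sca-1+ tdT+ cells, against 121, 134 and 82.0 CPM in Sca-1neg tdT+ cells (log2 fold change 1.0 ± 0.28, edgeR adjusted p 0.0425). Ube2c was also called, at a log2 fold change of 1.41 ± 0.41 (edgeR adjusted p 0.0490). The other 13 mitotic genes were not called and had log2 fold changes from 0.61 (Cenpe, a kinetochore motor) to 1.52 (Ccna2, cyclin A2), with the kinases Cdk1, Plk1, Aurka and Aurkb between 0.86 and 1.25.

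The counts of calls depended on single libraries. Leaving out Sca-1+ tdT+ replicate 2, which had the highest mitotic sum, left 4 members called. Leaving out replicate 1 or 3 of the same group gave 9 or 23 calls, against 1854 of 20056 or 1762 of 20440 genes. Without replicate 1 or 3 of the Sca-1neg tdT+ cells there were 4 or 8, against 1591 of 20117 or 2384 of 20347 genes. Leaving out the library labelled Sca-1neg tdT+ replicate 2 gave 15, of which 11 were among the 14, against 2126 of 20392 genes. Over the 18 alternatives the calls of Mcm6, Rrm1 and Mcm2 held in 14, 13 and 11, those of Cenpa, Cenpf, Cdc20 and Foxm1 in 12 or 13, and those of Top2a, Ccnb1, Mki67 and Ube2c in 5 to 7. With only both groups in the fit 3 members were called, against 1584 of 16174 genes. Among the 32-week libraries 0 were called, against 345 of 21875 genes, and by DESeq2 24, against 4615 of 20307 genes. In the fits with 3 or 4 calls, members were called at a share near that of all genes. When the 3 liver-transcript libraries were dropped, 1 Sca-1neg tdT+ library was left. That fit had median log2 fold changes of 1.58 over the mitotic and 0.72 over the S-phase genes. In all 18 alternatives the 23 mitotic log2 fold changes were above 0 and their median was above that of the S-phase genes. Between the single 29-week libraries, with no test, the median log2 difference was 1.05 over the mitotic and 0.35 over the S-phase genes. Between the 32-week means it was 1.08 and 0.71.

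Markers of other cells moved with this comparison. The sum of 14 T cell markers ran from 457 to 1221 CPM in Sca-1+ tdT+ cells and from 57.1 to 89.6 CPM in Sca-1neg tdT+ cells. Of the 14 markers 13 were called higher. The highest sum fell in Sca-1+ tdT+ replicate 2, the library with the highest sums of both cycle classes. Replicates 1 and 3 of that group ran the other way. Their T cell markers summed to 457 and 789 CPM, their mitotic genes to 972 and 625 CPM. Their S-phase genes summed to 635 and 589 CPM. Of 12 bulge markers 10 were called lower and 1 higher. The sum of 11 markers of differentiating epidermis, with 1 called higher and 1 lower, ran from 7796 to 10876 CPM in Sca-1+ tdT+ cells and from 2665 to 4979 CPM in Sca-1neg tdT+ cells. The part of these cells in the cycle gene values was not tested.

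**Figure D3:**
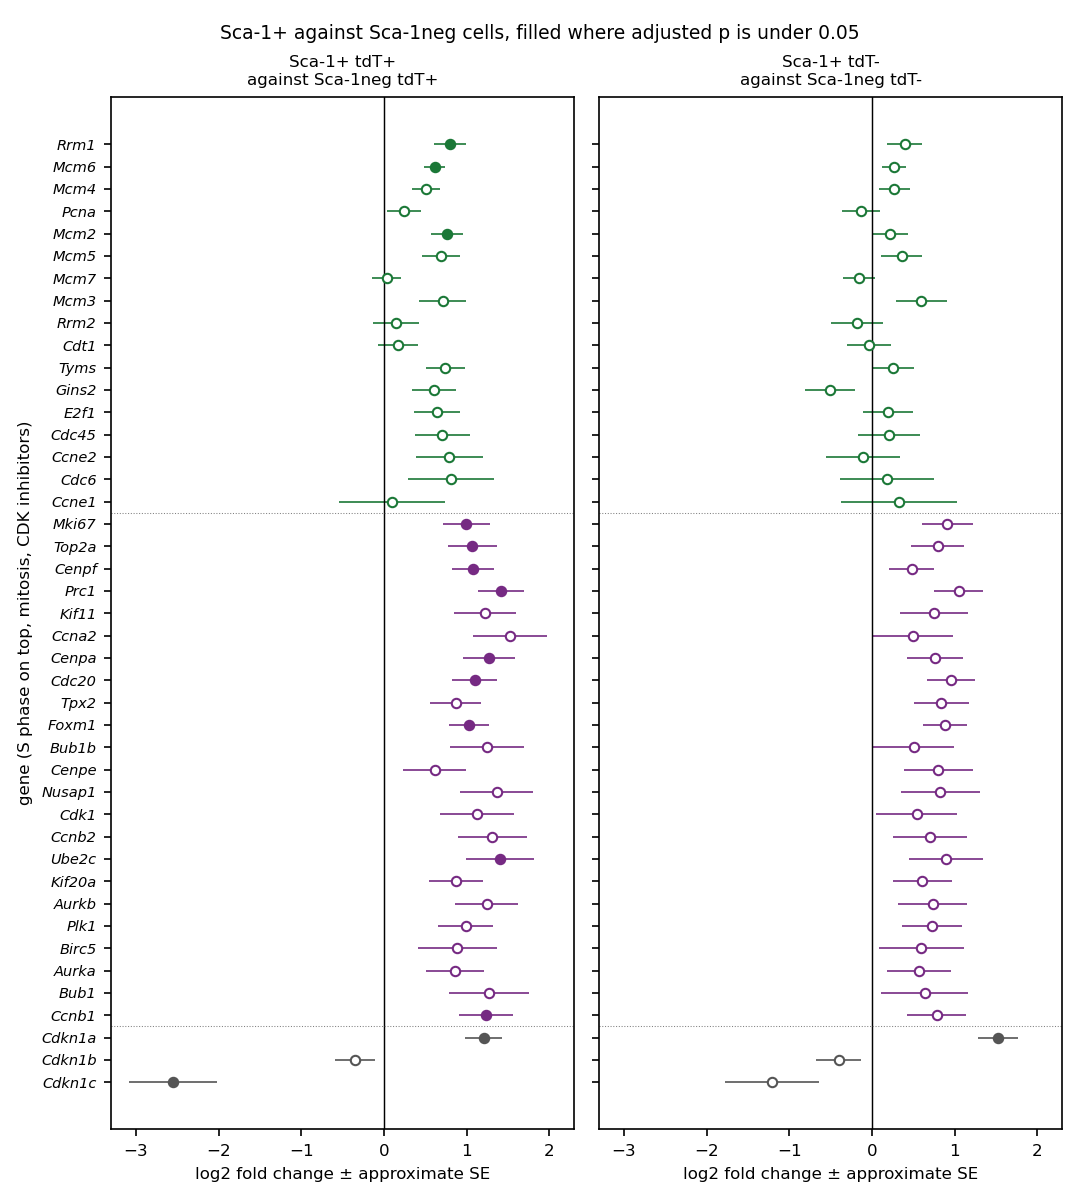
Points give the log2 fold change of each member with its approximate SE, for Sca-1+ tdT+ against Sca-1neg tdT+ cells (left) and Sca-1+ tdT- against Sca-1neg tdT- cells (right); filled points have an adjusted p under 0.05. All 23 mitotic points lie above 0 on both sides, with medians of 1.13 and 0.76, while S-phase points have medians of 0.64 and 0.21.

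The same contrast of Sca-1+ with Sca-1neg cells was measured between the libraries of tdT- cells. Both comparisons come from 1 fit of all 11 libraries. They share its filter and its estimate of the spread, so their calls are not independent. Of the 43 members, Cdkn1a alone was called, higher in Sca-1+ tdT- cells, against 5.74% of all genes called (3.68% higher and 2.06% lower). No S-phase or mitotic gene passed in edgeR. There 8 of 23 mitotic and 0 of 17 S-phase genes had an unadjusted p under 0.05, against 4173 of all 20307 genes. DESeq2 called 4 of 23 mitotic genes (Prc1, Foxm1, Cdc20 and Mki67), against 2804 of all 20307 genes (1677 higher). EdgeR on these 2 groups alone called 6 (Prc1, Ube2c, Cdc20, Mki67, Cenpa and Tpx2), against 2003 of 19068 genes (1284 higher). Each of these mitotic genes was higher in Sca-1+ tdT- cells. The log2 fold changes of the mitotic genes had a median of 0.76 and were above 0 for 23 of 23, those of the S-phase genes had a median of 0.21 with 11 of 17 above 0, and the median over all genes was -0.13. Both Sca-1+ tdT- libraries lay above all 3 Sca-1neg tdT- libraries for 22 of 23 mitotic genes and 3 of 17 S-phase genes, against 19.9% of all genes. Without the library with liver transcripts in this comparison, Sca-1neg tdT- replicate 2, and with the other such libraries also left out, the counts were 22 of 23 and 4 of 17, against 26.4% of all genes.

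Prc1 was at 50.6 and 52.0 CPM in Sca-1+ tdT- cells, against 29.3, 19.2 and 25.7 CPM in Sca-1neg tdT- cells (log2 fold change 1.05 ± 0.30, edgeR adjusted p 0.0649). Cdc20 was at 31.5 and 48.0 CPM in Sca-1+ tdT- cells, against 20.4, 19.2 and 21.8 CPM in Sca-1neg tdT- cells (log2 fold change 0.96 ± 0.29, edgeR adjusted p 0.0859). Mki67 was at 205 and 257 CPM in Sca-1+ tdT- cells, against 146, 96.0 and 127 CPM in Sca-1neg tdT- cells (log2 fold change 0.91 ± 0.31, edgeR adjusted p 0.118). These mitotic genes showed no overlap between the groups, and the same held for Foxm1, Top2a, Ccnb1, Ccnb2, Cenpa and Cenpf. Top2a was at 141 and 192 CPM in Sca-1+ tdT- cells and at 111, 76.9 and 100.2 CPM in Sca-1neg tdT- cells. Foxm1 was at 28.6 and 48.1 CPM in Sca-1+ tdT- cells and at 23.9, 17.4 and 21.1 CPM in Sca-1neg tdT- cells. The exception was Ccna2, which accumulates from S phase on, at a log2 fold change of 0.50 ± 0.48.

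The B-type cyclins and the centromere genes Cenpa and Cenpf did not overlap between the groups either. Ccnb1 was at 9.14 and 11.4 CPM in Sca-1+ tdT- cells and at 5.91, 5.05 and 6.98 CPM in Sca-1neg tdT- cells. Ccnb2 was at 17 and 28.9 CPM in Sca-1+ tdT- cells and at 12.9, 15.9 and 13.6 CPM in Sca-1neg tdT- cells. Both Sca-1+ tdT- libraries were the higher ones for each cyclin. Cenpa was at 31.5 and 43.2 CPM in Sca-1+ tdT- cells and at 23.5, 21.7 and 20.7 CPM in Sca-1neg tdT- cells. Cenpf was at 45.8 and 43.1 CPM in Sca-1+ tdT- cells and at 36.2, 24.9 and 34.5 CPM in Sca-1neg tdT- cells.

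Replication genes showed no such order in tdT- cells. Pcna was at 50.1 and 50.1 CPM in Sca-1+ tdT- cells, against 49.1, 50.4 and 64.7 CPM in Sca-1neg tdT- cells (log2 fold change -0.13 ± 0.23). Rrm2 was at 28.6 and 50.6 CPM in Sca-1+ tdT- cells, against 50.3, 41.7 and 42.9 CPM in Sca-1neg tdT- cells (log2 fold change -0.18 ± 0.31). Both overlapped between the groups, whereas Mcm6, Rrm1 and Mcm3 were higher in both Sca-1+ tdT- libraries. Mcm6 was at 97.2 and 120.3 CPM in Sca-1+ tdT- cells, against 95.3, 85.8 and 90.1 CPM in Sca-1neg tdT- cells. Rrm1 was at 91.1 and 124 CPM in Sca-1+ tdT- cells, against 80.4, 79.3 and 85.0 CPM in Sca-1neg tdT- cells. The log2 fold changes of these genes, 0.27 ± 0.14 and 0.40 ± 0.21, did not pass the test. Mcm4 (73.7 and 89.1 CPM in Sca-1+ tdT- cells, against 70.0, 57.3 and 75.1 CPM in Sca-1neg tdT- cells) and Mcm2 (48.4 and 71.9 CPM, against 51.0, 54.6 and 48.9 CPM) overlapped. Gins2, a subunit of the helicase activator, was lower in both Sca-1+ tdT- libraries (log2 fold change -0.51 ± 0.30), as were 26.4% of all genes.

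In all 18 alternatives the mitotic median of this comparison lay above the S-phase median, with 23 of 23 mitotic log2 fold changes above 0. The S-phase median turned to -0.08 without Sca-1+ tdT- replicate 2, where the mitotic median was 0.54. Between the single 29-week libraries, with no test, the median log2 difference was 0.38 over the mitotic and -0.15 over the S-phase genes, and at 32 weeks it was 0.95 and 0.45. The sum of 14 endothelial markers ran from 5620 to 5930.1 CPM in Sca-1+ tdT- cells and from 54.0 to 226 CPM in Sca-1neg tdT- cells, with none of the 14 called. The sum of T cell markers ran from 151 to 167 CPM in Sca-1+ tdT- cells, where Cd28 was at 0, and from 34.8 to 37.1 CPM in Sca-1neg tdT- cells, with 10 of 14 called higher. Summed Langerhans cell markers ran from 909 to 1085 CPM in Sca-1+ tdT- cells and from 363 to 441 CPM in Sca-1neg tdT- cells, with 4 of 8 called higher. Markers of differentiating epidermis summed to 3658 to 7918 CPM in Sca-1+ tdT- cells and to 1094 to 2381 CPM in Sca-1neg tdT- cells, with 4 of 11 called higher and 1 lower. Bulge markers summed to 10023 to 10709 CPM in Sca-1+ tdT- cells and to 18893 to 23139 CPM in Sca-1neg tdT- cells, with 5 of 12 called lower and 1 higher. Hair matrix markers summed to 298 to 343 CPM in Sca-1+ tdT- cells and to 91.0 to 102 CPM in Sca-1neg tdT- cells. Of the 10 tested, 1 was called higher and 1 lower. The part of these cells in the mitotic gene values was not tested.

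Further genes of the same processes, none of them members, gave the same order of classes. Their lists were chosen with earlier results of these data known, so they are not independent support. In tdT+ cells, 11 of 45 other mitosis genes rose in Sca-1+ over Sca-1neg cells and none fell, against 12.7% of all genes called, with a median log2 fold change of 0.92. Those with the lowest p were Kif23, the motor that bundles the midzone with Racgap1, at 38.1 ± 9.39 CPM in Sca-1+ tdT+ cells and 20.1 ± 3.94 CPM in Sca-1neg tdT+ cells (SD, n = 3 each), and Aspm, a spindle pole protein, at 38.3 ± 12.6 and 15.7 ± 6.06 CPM in the same groups. Ckap2l (41.7 ± 13.4 and 18.8 ± 6.43 CPM) and the chromokinesin Kif4 (20.9 ± 5.46 and 8.12 ± 4.08 CPM) came next. Of 36 other replication genes 2 rose and none fell, a share near the 5.94% of all genes called higher, with a median of 0.34. They were the kinase gene Cdc7 at 13.5 ± 2.24 CPM in Sca-1+ tdT+ cells and 5.93 ± 1.24 CPM in Sca-1neg tdT+ cells, and Dbf4, which encodes its activator, at 24 ± 11.4 and 9.31 ± 3.54 CPM. In tdT- cells none of the 45 other mitosis genes was called by edgeR, with a median of 0.64. Of the 45, 11 had an unadjusted p under 0.05, a share near that of all genes (4173 of 20307). Of the 36 other replication genes there, Dut, a nucleotide pool enzyme, fell to 24.2 ± 6.30 CPM in Sca-1+ tdT- cells (SD, n = 2), against 49.7 ± 8.78 CPM in Sca-1neg tdT- cells (SD, n = 3), and the median was -0.02.

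Genes that control the G1 phase were also compared. In tdT+ cells, 4 of 21 rose in Sca-1+ over Sca-1neg cells and none fell, against 5.94% of all genes called higher. They were the kinase Cdk6 (log2 fold change 1.15 ± 0.18), the E2F factors E2f4 (0.62 ± 0.11) and E2f2 (1.01 ± 0.24), and the pocket protein gene Rbl1 (0.80 ± 0.21). In tdT- cells 1 of 21 rose, a share near the 3.68% of all genes called higher. It was Cdk6, with 83.1 ± 11.2 CPM in Sca-1+ tdT- cells (SD, n = 2) and 45.9 ± 5.93 CPM in Sca-1neg tdT- cells (SD, n = 3).

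The next comparison asks how tdT+ and tdT- cells differ within the Sca-1neg cells. No member was called by edgeR, against 0.064% of all genes (0.0542% higher and 0.00985% lower), nor by DESeq2. At an unadjusted p under 0.05 stood 3 of 17 S-phase genes (Mcm2, Mcm6 and Rrm2), 0 of 23 mitotic genes and Cdkn1a, against 1691 of all 20307 genes. All 17 S-phase log2 fold changes were below 0, with a median of -0.36, as were 22 of 23 mitotic ones, with a median of -0.38, against -0.03 over all genes. The classes differed in how far the libraries overlapped. All 3 Sca-1neg tdT+ libraries lay below all 3 Sca-1neg tdT- libraries for 11 of 17 S-phase genes and for 2 of 23 mitotic genes (Ccna2 and Bub1b), against 10.9% of all genes, and no S-phase or mitotic gene showed the reverse, against 5.07%. After dropping the library labelled Sca-1neg tdT+ replicate 2, these counts were 11 of 17 and 18 of 23, against 17.4% of all genes.

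Per gene, Mcm6 had the smallest unadjusted p. It was at 71.3, 66.2 and 60.6 CPM in Sca-1neg tdT+ cells, against 95.3, 85.8 and 90.1 CPM in Sca-1neg tdT- cells (log2 fold change -0.45 ± 0.13, edgeR adjusted p 0.330). Mcm2 was at 36.8, 34.7 and 37.4 CPM in Sca-1neg tdT+ cells, against 51.0, 54.6 and 48.9 CPM in Sca-1neg tdT- cells (log2 fold change -0.51 ± 0.19, edgeR adjusted p 0.515). Rrm2 was at 36.1, 26.2 and 23.6 CPM in Sca-1neg tdT+ cells, against 50.3, 41.7 and 42.9 CPM in Sca-1neg tdT- cells (log2 fold change -0.65 ± 0.28, edgeR adjusted p 0.594). For these 3 genes the library labelled Sca-1neg tdT+ replicate 2 stood with the other Sca-1neg tdT+ libraries, below the Sca-1neg tdT- ones. For Top2a, in contrast, it read 96.6 CPM, inside the Sca-1neg tdT- range of 76.9 to 111 CPM, while replicates 1 and 3 read 63.5 and 55.7 CPM.

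Of the further genes none was called here by edgeR. Among them 5 replication and 0 mitosis genes had an unadjusted p under 0.05, against 1691 of all 20307 genes. The log2 fold changes of 1 of 36 other replication genes (median -0.34) and 4 of 45 other mitosis genes (median -0.28) were above 0. The class medians held their sign in all 18 alternatives, from -0.50 to -0.28 over the S-phase genes and from -0.82 to -0.23 over the mitotic genes. When the 3 liver-transcript libraries were dropped, leaving Sca-1neg tdT+ replicate 3 against 2 Sca-1neg tdT- libraries, they were -0.47 and -0.82, and 16 of 17 and 22 of 23 genes lay below both, against 48.0% of all genes. Between the single 29-week libraries the median log2 difference was -0.28 over the S-phase and -0.59 over the mitotic genes, and at 32 weeks it was -0.45 and -0.26. The summed T cell markers ran from 57.1 to 89.6 CPM in Sca-1neg tdT+ cells and from 34.8 to 37.1 CPM in Sca-1neg tdT- cells, and the summed bulge markers from 12804 to 19895 CPM and from 18893 to 23139 CPM. In the same order, differentiating epidermis markers summed to 2665 to 4979 CPM and 1094 to 2381 CPM. Langerhans cell markers summed to 484 to 778 CPM and 363 to 441 CPM, and hair matrix markers to 63.6 to 70.6 CPM and 91.0 to 102 CPM. No marker of these last 3 lists was called. The part of such cells in the cycle gene values was not tested.

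Within the Sca-1+ cells, tdT+ and tdT- libraries showed no called member in edgeR, against 2.74% of all genes (0.394% higher and 2.34% lower). The unadjusted p was under 0.05 for 1 S-phase gene (Gins2), 0 mitotic genes and Cdkn1c, against 2935 of all 20307 genes. Median log2 fold changes were -0.02 over the S-phase genes and -0.02 over the mitotic genes, against 0.04 over all genes, with 8 of 17 and 11 of 23 above 0. No mitotic gene separated the groups. Mki67 was at 235, 298 and 139 CPM in Sca-1+ tdT+ cells and at 205 and 257 CPM in Sca-1+ tdT- cells. The SE of the log2 fold change of Mki67 here was 0.31, so a difference of that size was not detectable at this number of libraries. Gins2 was at 13.3, 20.6 and 17.6 CPM in Sca-1+ tdT+ cells, against 9.24 and 11.6 CPM in Sca-1+ tdT- cells (log2 fold change 0.72 ± 0.30, edgeR adjusted p 0.301), and it is named for being the S-phase gene whose groups did not overlap, against 15.8% of all genes higher without overlap. Cell markers differed between these groups. Endothelial markers summed to 82.2 to 187 CPM in Sca-1+ tdT+ cells and to 5620 to 5930.1 CPM in Sca-1+ tdT- cells. In the same order, T cell markers summed to 457 to 1221 CPM and 151 to 167 CPM, and hair matrix markers to 35.2 to 169 CPM and 298 to 343 CPM. Bulge marker sums overlapped, with 6 of 12 called lower in Sca-1+ tdT+ cells. The part of such cells in the cycle gene values here was not tested. The signs of the S-phase and mitotic medians depended on the libraries compared. Between the single 29-week libraries the median log2 difference was 0.14 over the S-phase and 0.17 over the mitotic genes. At 32 weeks, with 2 libraries against 1, it was -0.26 and -0.33. The mitotic median was -0.45 without Sca-1+ tdT+ replicate 2 and 0.26 without replicate 3 of that group, both of 32 weeks. Age and single libraries cannot be told apart here.

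A test of whether the tdT difference itself differed between Sca-1+ and Sca-1neg cells called no member in edgeR, against 0.483% of all genes (0.0148% higher and 0.468% lower), and none in DESeq2. At an unadjusted p under 0.05 stood Gins2 among the S-phase genes and 0 of 23 mitotic genes, against 2476 of all 20307 genes. The difference of log2 fold changes had a median of 0.37 over the S-phase genes, 0.45 over the mitotic genes and 0.05 over all genes. With DESeq2 size factors the median over all genes moved to -0.07 and those of the classes to 0.26 and 0.34. The direction rested on 1 library: without Sca-1+ tdT+ replicate 2 the median was 0.06 over the S-phase genes and -0.07 over the mitotic genes, of which 8 of 23 were above 0.

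The CDK inhibitors, which hold the cycle back, behaved unlike one another. Cdkn1a was at 289, 315 and 403 CPM in Sca-1+ tdT+ cells, at 285 and 257 CPM in Sca-1+ tdT- cells, at 99.5, 179 and 158 CPM in Sca-1neg tdT+ cells and at 106, 79.8 and 97.3 CPM in Sca-1neg tdT- cells. All 5 Sca-1+ libraries lay above all 6 Sca-1neg libraries. It rose in Sca-1+ over Sca-1neg cells both among tdT+ cells (log2 fold change 1.21 ± 0.22, edgeR adjusted p 0.00578) and among tdT- cells (1.52 ± 0.24, edgeR adjusted p 0.00741). These calls held in 17 of 18 and 16 of 18 alternatives. Cdkn1a and most mitotic genes thus stood higher in the same libraries, with Sca-1+ tdT+ replicate 3 as an exception, which had the highest Cdkn1a level and the lowest mitotic sum of the Sca-1+ libraries.

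Cdkn1a is a target of p53, and other p53 targets were read beside it. In tdT+ cells 4 of 14 rose in Sca-1+ over Sca-1neg cells and none fell, against 5.94% of all genes called higher. They were the stress kinase gene Plk2 (log2 fold change 2.27 ± 0.43), Gadd45a (1.40 ± 0.28), Sesn2 (1.10 ± 0.30) and the nuclease gene Aen (0.70 ± 0.16). In tdT- cells Eda2r (2.72 ± 0.37), Gadd45a (1.27 ± 0.31) and Aen (0.74 ± 0.18) rose and Sesn1 fell (-0.82 ± 0.21), against 3.68% of all genes called higher and 2.06% lower. The median over the 14 genes was 0.14 in tdT+ and -0.22 in tdT- cells, so the list as a whole had no common direction.

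Cdkn1c was scarce, with 6 to 210 reads per library. It was at 0.613, 0.681 and 0.310 CPM in Sca-1+ tdT+ cells, at 2.09 and 1.42 CPM in Sca-1+ tdT- cells, at 3.22, 2.3 and 3.97 CPM in Sca-1neg tdT+ cells and at 3.88, 3.20 and 5.12 CPM in Sca-1neg tdT- cells. The Sca-1+ tdT+ libraries were the 3 lowest, the Sca-1+ tdT- libraries came next, and all Sca-1neg libraries were higher. In Sca-1+ tdT+ cells it fell relative to Sca-1neg tdT+ cells (log2 fold change -2.55 ± 0.53, edgeR adjusted p 0.0103), the only member to do so, and the call held in 16 of 18 alternatives. Against Sca-1+ tdT- cells the log2 fold change was -1.71 ± 0.56 (edgeR adjusted p 0.166), while DESeq2 called it lower, so that call depended on the tool. Its libraries did not overlap there, all Sca-1+ tdT+ ones being lower, as for 17.2% of all genes. Its exons share 625 bases with the antisense gene Gm44732, whose reads cannot be told apart from those of Cdkn1c here.

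Cdkn1b did not pass the test in any comparison. It was at 150.3, 128 and 166 CPM in Sca-1+ tdT+ cells, at 165 and 175 CPM in Sca-1+ tdT- cells, at 166, 174 and 228 CPM in Sca-1neg tdT+ cells and at 258, 137 and 279 CPM in Sca-1neg tdT- cells. The groups overlapped in all 4 pairwise comparisons, and the log2 fold changes of Sca-1+ over Sca-1neg cells were -0.35 ± 0.24 among tdT+ and -0.40 ± 0.27 among tdT- cells.

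**Figure D4:**
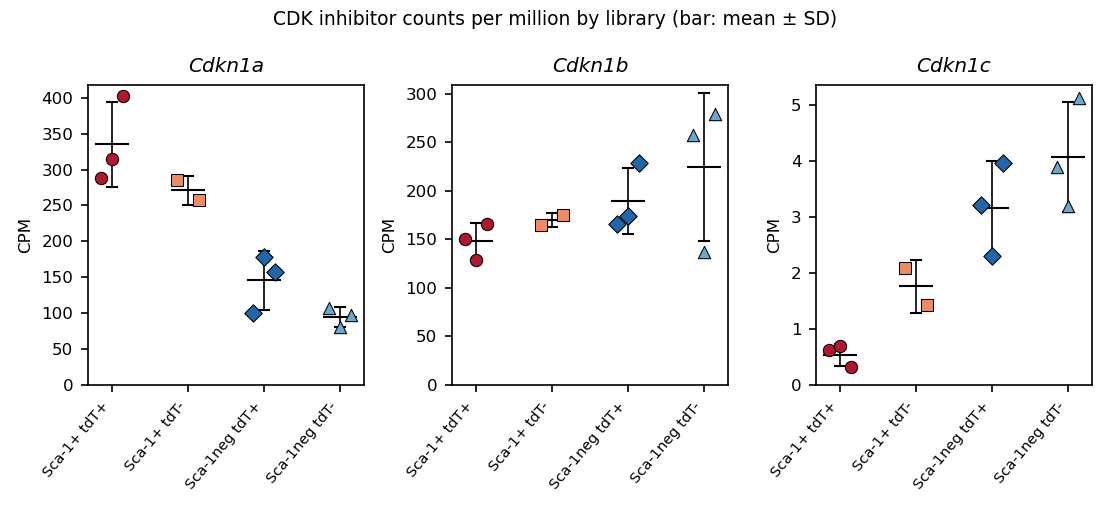
Each panel gives the CPM of 1 CDK inhibitor gene in every library by group, with bars for the mean ± SD (n = 3, and n = 2 for Sca-1+ tdT-). All Sca-1+ points of Cdkn1a lie above all Sca-1neg points, the points of Cdkn1c run the other way, and those of Cdkn1b overlap.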

How the data were processed

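Raw counts per gene were deposited by the authors, 1 table per library. The submitters' processing notes name bcl2fastq 2.20.0.422, FastQC, STAR, featureCounts, DESeq2 1.18.1 and the build mm10, and the labels a TruSeq RNA v2 kit. Annotation release, strand setting and handling of multimapping reads: not given in the sources used here. Symbols, positions and exon lengths came from GENCODE M21 by Ensembl identifier. Counts were fitted in R 4.3.3 with edgeR 4.0.16 (filterByExpr by group, TMM, robust glmQLFit, glmQLFTest) on all 11 libraries with 4 group means and 7 residual degrees of freedom, which left 20307 genes. Adjusted p is Benjamini-Hochberg over those genes, with a threshold of 0.05. The approximate SE of a log2 fold change is its size over the root of the F statistic. CPM are scaled by TMM. The tracer entry was kept out of the fit. Alternatives were DESeq2 1.42.0, its size factors in edgeR, no low-count filter, a replicate block, only the groups compared, the 32-week libraries, no liver-transcript libraries, and each library left out. The test was also run on simulated counts in which no library departed from its group. That run cannot tell how far single libraries moved the calls here. Members and lists were chosen with earlier results of these data known. Values per library are given for up to 12 called members with the lowest adjusted p, the CDK inhibitors, and the 4 most abundant genes per kb of each class; up to 4 called genes of each further list are named. Gins2 and other genes were named after their values were seen.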

Additional observations from a re-analysis of the deposited data

How the results depend on the processing

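Of the 5 comparisons, direction never reversed for a called member. The number of members called moved by over 1.5 times as follows. Sca-1+ tdT+ against Sca-1+ tdT-: 1 with DESeq2. Sca-1+ tdT+ against Sca-1neg tdT+: 24 with DESeq2, 3 with only the groups compared, 0 at 32 weeks, and 4 to 23 with 1 library left out. Sca-1+ tdT- against Sca-1neg tdT-: 5 with DESeq2, 2 with DESeq2 size factors, 2 with no filter, 7 with only the groups compared, 0 at 32 weeks, 2 without liver libraries, and 0 to 2 with 1 library left out, where 0 came without Sca-1+ tdT- replicate 1. The number of all genes called was, for Sca-1+ tdT+ against Sca-1+ tdT-, 1413 with DESeq2, 957 with only the groups compared, 64 at 32 weeks, 1286 without liver libraries and 145 to 791 with 1 library left out. For Sca-1neg tdT+ against Sca-1neg tdT- it was 390 with DESeq2, 81 with no filter, 0 with only the groups compared, 0 at 32 weeks, 38 without liver libraries and 0 to 14 with 1 left out. For Sca-1+ tdT+ against Sca-1neg tdT+ it was 4615 with DESeq2, 1584 with only the groups compared, 345 at 32 weeks and 1591 to 3040 with 1 left out. For Sca-1+ tdT- against Sca-1neg tdT- it was 2804 with DESeq2, 2003 with only the groups compared, 9 at 32 weeks, 2073 without liver libraries and 116 to 1665 with 1 left out. For the difference of tdT effects it was 827 with DESeq2, 156 with DESeq2 size factors, 234 with no filter, 0 at 32 weeks, 220 without liver libraries and 26 to 347 with 1 left out. The 32-week fits hold fewer libraries; the cause of the other shifts was not tested.

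Median log2 fold changes moved by more than the spread between replicates without liver libraries for the mitotic genes, to -0.82 in tdT+ against tdT- Sca-1neg cells, 1.58 in Sca-1+ against Sca-1neg tdT+ cells and 0.93 in the difference of tdT effects. With 1 library left out the S-phase medians ran from -0.26 to 0.30 in tdT+ against tdT- Sca-1+ cells, 0.38 to 0.80 in Sca-1+ against Sca-1neg tdT+ cells, -0.081 to 0.44 in Sca-1+ against Sca-1neg tdT- cells and 0.061 to 0.68 in the difference of tdT effects. The mitotic medians ran from -0.45 to 0.26 in tdT+ against tdT- Sca-1+ cells and from -0.070 to 0.68 in the difference. With a replicate block, 18 members (17 higher, 1 lower) were called for Sca-1+ against Sca-1neg tdT+ cells and 1 for the tdT- cells, and the other member calls did not change. Deviations from the group means correlated from -0.42 to 0.59 between same-numbered libraries and from -0.60 to 0.51 between differently numbered ones. With 2 or 3 libraries in a group, this cannot settle whether the numbers pair the samples. Low counts limit Cdkn1c and Ccne1 most.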
